A study of Mus musculus with 12 samples.

Results

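The calcineurin and NFAT pathway was described through 10 genes of the 25700 in the RNA table, chosen by gene symbol as textbook components of the pathway. They are the calcium sensor Stim1, the calcium channel Orai1, the calcineurin catalytic subunits Ppp3ca, Ppp3cb and Ppp3cc, the calcineurin regulatory subunit Ppp3r1, the calcineurin regulator Rcan1, and the transcription factors Nfatc1, Nfatc2 and Nfatc3. When a T cell receptor is engaged, the endoplasmic reticulum loses calcium, STIM1 senses the loss and opens ORAI1 channels in the plasma membrane. The calcium that enters binds calmodulin, which switches on calcineurin, a phosphatase made of a catalytic and a regulatory subunit. Calcineurin removes phosphates from NFAT proteins, which then move to the nucleus and act on cytokine genes, often beside AP-1. Much of this control is exerted on proteins and their location, which neither transcript counts nor open chromatin measure.

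RNA-seq libraries of mouse Th2 cells came from 3 WT and 3 cKO samples, and ATAC-seq libraries, which read where DNA is open to a transposase, from 3 WT and 3 cKO samples. The series sets these cells in models of allergic asthma. The genotype label is WT or cKO, a conditional knockout; it names no deleted gene and no Cre driver, and gives neither the age of the animals nor whether libraries came from separate animals or cultures. Tests over libraries therefore measure the spread between these samples, which may be technical.

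The series title names NRF2, the antioxidant regulator encoded by Nfe2l2. Nfe2l2 RNA was 170, 155 and 147 normalized counts in WT libraries 1, 2 and 3 and 453, 326 and 392 in the cKO libraries, a log2 change of 1.29 (SE 0.220, adjusted p = 0.0438). It was thus higher in the knockout-labelled libraries, so these are called cKO-labelled here; without exon-level values the deletion itself could not be checked. The direction held in every alternative, but the call was lost without any 1 of WT libraries 2 and 3 and cKO-labelled libraries 1 and 3 (limma adjusted p = 0.0977 to 0.324), with TMM rescaling (0.0555) and with no trend (0.446). In the authors' deposited table its adjusted p-value is 2.32e-05. The Y-linked transcripts Ddx3y and Eif2s3y, at 132 ± 8.56 and 122 ± 5.06 normalized counts in WT (SD, n = 3), were listed at 0 in all 3 cKO-labelled libraries, while Xist was 3700 ± 463 and 5895 ± 1410 in the same order of groups. The genotype label and the difference in these transcripts cannot be told apart in any RNA result below. Whether the ATAC libraries of the 2 groups differ in the same way was not tested. RNA totals ran from 6431081 to 7372007 normalized counts. The 9 T cell markers were all present, at a summed 20448 to 23011 in WT and 18544 to 25473 in cKO-labelled libraries. Summed markers of B cells (183 to 445 and 238 to 341), myeloid and dendritic cells (100 to 197 and 95.9 to 146), CD8 T and NK cells (117 to 180 and 105 to 107) and epithelial and stromal cells (193 to 234 and 131 to 216) were low in both groups. The 8 Th2 markers summed to 2025 to 2485 in WT and 1716 to 2329 in cKO-labelled libraries. Of these, Il4, Il5 and Ptgdr2 lay below a mean of 10 normalized counts, and the other 5 were tested. Their WT and cKO-labelled means were 712 and 720 for Gata3, 810 and 385 for Il13, and 471 and 626 for Ccr4. Ccr8 had means of 185 and 294, and Il1rl1 of 26.4 and 18.1. In such bulk samples fewer cells of a type and less RNA per cell cannot be told apart.

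All 10 genes were expressed above the minimum mean of 10 normalized counts and were tested, and none of them passed. The tool was limma on log2 of the normalized count plus 1, adjusted over 18074 genes at a threshold of 0.05, under which 0.205% of all tested genes were called, 0.0332% as higher and 0.172% as lower. In the authors' deposited table, where 5.68% of the genes with an adjusted p-value lie under 0.05, none of the 10 did either. At an unadjusted p under 0.05 there were 3 of the 10, Nfatc1, Orai1 and Ppp3ca, beside 12.1% of all tested genes. The log2 changes were positive for 8 genes and negative for 2, with a median of 0.27 beside 0.06 over all tested genes. Of the 10 genes, 7 lie in the fifth of genes with the longest genomic spans, whose median log2 change was 0.15, against -0.03 in the fifth with the shortest spans; the part of span in the members' values was not tested.

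**Figure D1:**
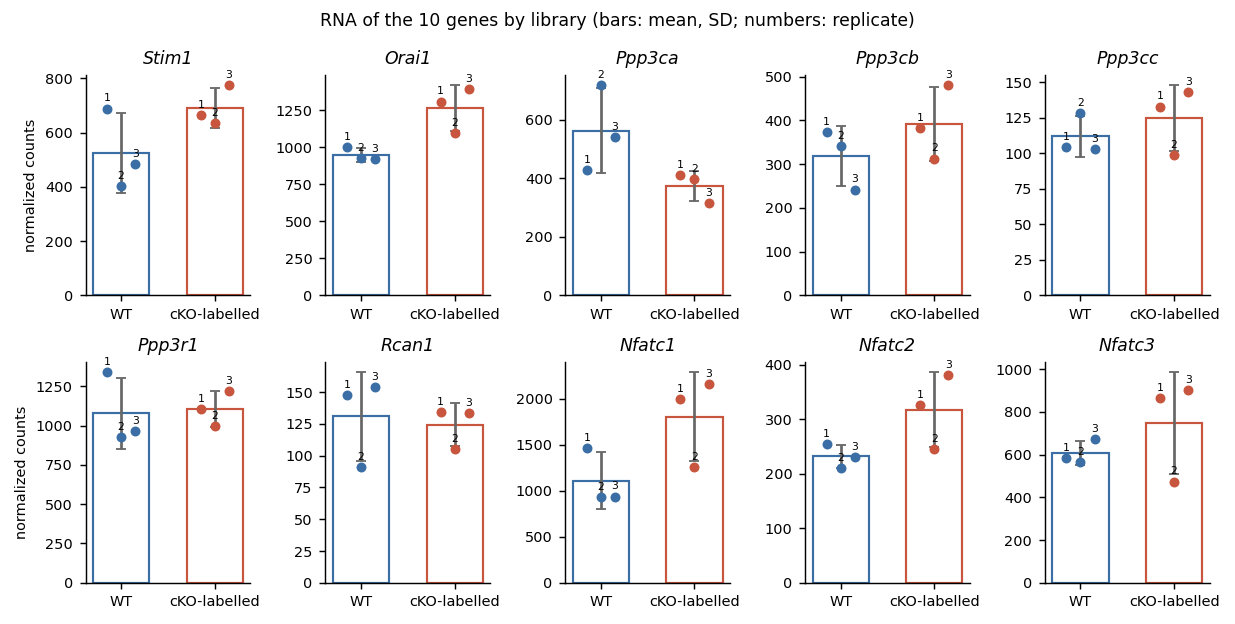
RNA of the 10 genes in normalized counts (y axis, each from 0) for the 3 WT and 3 cKO-labelled libraries; points are libraries with their replicate number, bars the group mean and whiskers the SD. Only Orai1 (higher) and Ppp3ca (lower) have groups that do not overlap, and cKO-labelled library 2 lies nearest the WT libraries for Nfatc1, Nfatc3 and Orai1.

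Among the genes of calcium entry, Orai1, the pore of the store-operated channel, was measured at 1004, 926 and 920 normalized counts in WT libraries and at 1308, 1096 and 1395 in cKO-labelled libraries. Each cKO-labelled library lay above each WT library, a pattern found as higher groups in 7.40% of all tested genes. The means were 950 ± 46.6 and 1266 ± 154 (SD, n = 3 each), 1.33-fold apart, with a log2 change of 0.41 (SE 0.158, adjusted p = 0.318). Stim1, the sensor, was at 689, 403 and 484 in WT and 664, 636 and 776 in cKO-labelled libraries. WT library 1 lay among the cKO-labelled libraries, so the groups overlapped, and the log2 change of 0.43 (SE 0.213) had an adjusted p of 0.452 in limma.

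For calcineurin itself, Ppp3ca encodes 1 of the 3 alternative catalytic subunits and was the member with the lowest log2 change. Its values were 429, 718 and 540 normalized counts in WT and 410, 398 and 316 in cKO-labelled libraries. The groups did not overlap, but by only a small margin between WT library 1 and cKO-labelled library 1, and 9.76% of all tested genes had lower groups that did not overlap. The means were 562 ± 146 and 375 ± 51.4, a ratio of 0.666, with a log2 change of -0.56 (SE 0.222, limma adjusted p = 0.328).

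The other catalytic subunits did not share this direction. Ppp3cb was at 374, 341 and 242 in WT and 382, 313 and 481 in cKO-labelled libraries, and Ppp3cc at 104, 128 and 103 against 133, 98.8 and 143. Both pairs of groups overlapped, and the log2 changes were 0.30 (SE 0.236) and 0.15 (SE 0.279). A ratio of 2 transcripts within a library cancels any 1 scaling factor per library, so the mix of catalytic subunits was compared that way. The log2 ratio of Ppp3ca to Ppp3cc was 2.03, 2.48 and 2.38 in WT and 1.62, 2.00 and 1.14 in cKO-labelled libraries. All cKO-labelled values lay below all WT values, a difference of -0.71 with an exact two-sided permutation p of 0.1, the smallest that 3 against 3 libraries allow. For Ppp3ca to Ppp3cb the difference was -0.86 (exact permutation p = 0.2) and for Ppp3cb to Ppp3cc 0.15 (exact permutation p = 0.5). Over the 6 ratios computed, the 3 here and 3 among the NFAT genes, Benjamini-Hochberg adjusted values of these exact tests ran from 0.45 to 0.50.

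Ppp3r1, the calcium-binding regulatory subunit that each catalytic subunit needs, was at 1339, 929 and 965 in WT and 1103, 995 and 1220 in cKO-labelled libraries. The cKO-labelled values lay inside the WT range, with a log2 change of 0.05 (SE 0.180). Rcan1 encodes a protein that binds and restrains calcineurin, and its transcription from an internal start is itself a known response to calcineurin and NFAT. Its RNA, which the table gives as 1 value per gene, was 148, 91.0 and 154 in WT and 134, 105 and 134 in cKO-labelled libraries, again inside the WT range (log2 change -0.04, SE 0.293). Such a count does not separate the products of the Rcan1 starts.

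Among the NFAT genes, Nfatc1 had the largest log2 change of the 10. It was at 1466, 932 and 937 normalized counts in WT and 1999, 1261 and 2163 in cKO-labelled libraries. WT library 1 lay above cKO-labelled library 2, so the groups overlapped. The means were 1112 ± 307 and 1808 ± 480, 1.63-fold apart, and the log2 change of 0.70 (SE 0.229) had a limma adjusted p of 0.240. In the authors' deposited table its adjusted p-value is 0.058.

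Nfatc2, abundant in resting T cells as a protein, was at 254, 210 and 231 in WT and 326, 245 and 381 in cKO-labelled libraries. Nfatc3 was at 583, 566 and 674 in WT and 866, 473 and 903 in cKO-labelled libraries. Both overlapped through cKO-labelled library 2, with log2 changes of 0.43 (SE 0.229) and 0.24 (SE 0.236). That library sat below the other cKO-labelled libraries for all 3 NFAT genes. Without it the log2 changes were 0.94 for Nfatc1 (limma adjusted p = 0.0677), 0.54 for Nfatc3 (0.166) and 0.51 for Orai1 (0.144), none past the threshold. With each library left out in turn they went down to 0.55, 0.080 and 0.33 in the same order. The limma adjusted p then reached 0.729, 0.969 and 0.826. The ratio of Nfatc1 to Nfatc2 differed by 0.26 on the log2 scale and that of Nfatc1 to Nfatc3 by 0.45 (exact permutation p = 0.3 for each). The ratio of Nfatc2 to Nfatc3 differed by 0.19 (exact permutation p = 0.4).

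A list of 35 further genes of calcium release, calmodulin, calcineurin regulation and NFAT kinases was read the same way. Of these, 34 were in the RNA table and 31 passed the minimum; Cracr2b, Nfatc4 and Rcan2 did not, and Ppp3r2 was not analysed here. None of the 31 passed in limma, 5 had an unadjusted p under 0.05 beside 12.1% of all tested genes, and the authors' deposited table calls 1 higher and 1 lower beside 5.68% of its genes in either direction. Their log2 changes were positive for 22 and negative for 9, with a median of 0.17, beside 0.06 for all tested genes.

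Orai2, another channel subunit of the ORAI family, had the smallest p of the list. It was at 734, 576 and 474 in WT and 1124, 789 and 1322 in cKO-labelled libraries, without overlap. Its log2 change was 0.85 (SE 0.222, limma adjusted p = 0.132), and the authors' deposited table gives it an adjusted p-value of 0.012. Calm3, which encodes calmodulin, was at 2098, 1530 and 2558 in WT and 1207, 1499 and 1267 in cKO-labelled libraries. It too did not overlap, with a log2 change of -0.61 (SE 0.189, limma adjusted p = 0.201), and has an adjusted p-value of 0.039 in the authors' deposited table.

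Nfat5, the family member that answers to osmotic stress and not to calcineurin, was at 1029, 856 and 700 in WT and 1560, 871 and 1980 in cKO-labelled libraries. The low value of cKO-labelled library 2 recurred here, and the log2 change of 0.71 (limma adjusted p = 0.295) became 1.04 without that library (limma adjusted p = 0.0438). Of the 6 fits with 1 library left out it was the only 1 past the threshold. The others went down to 0.45, with limma adjusted p up to 0.760. Ppia, the cyclophilin through which ciclosporin blocks calcineurin, was at 13923, 13717 and 11952 in WT and 10464, 10484 and 11109 in cKO-labelled libraries. The groups did not overlap, and the log2 change was -0.30 (SE 0.117, limma adjusted p = 0.317).

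Of 18 listed NFAT target genes, 15 were tested and none passed in limma; Il4, Il5 and Xcl1 lay below the minimum. An unadjusted p under 0.05 was found for 3, beside 12.1% of all tested genes, and the authors' deposited table calls 1, Il13, lower, beside 5.68% of its genes in either direction. Log2 changes were positive for 9 and negative for 6, with a median of 0.08 beside 0.06 for all tested genes. Il13, a cytokine of Th2 cells, was at 1093, 693 and 645 in WT and 322, 438 and 394 in cKO-labelled libraries. All cKO-labelled values lay below all WT values (log2 change -1.04, SE 0.225, limma adjusted p = 0.083), and the authors' deposited table gives an adjusted p-value of 0.00104.

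Il3, a growth factor cytokine, was at 306, 356 and 189 in WT and 187, 116 and 155 in cKO-labelled libraries (log2 change -0.86, limma adjusted p = 0.241). Il2, the T cell growth factor, was at 3896, 4179 and 3864 in WT and 3351, 3162 and 3671 in cKO-labelled libraries (log2 change -0.23, limma adjusted p = 0.502). Their groups did not overlap either, as in 9.76% of all tested genes. Other cytokine genes of the list overlapped between groups, with log2 changes of -0.25 for Csf2, 0.19 for Tnf, 0.96 for Ifng (SE 1.43) and 0.01 for Tnfsf11. Irf4, a transcription factor of activated T cells, lay the other way, at 1607, 1150 and 1299 against 2277, 1495 and 2438, with overlap (log2 change 0.60, limma adjusted p = 0.245).

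**Figure D2:**
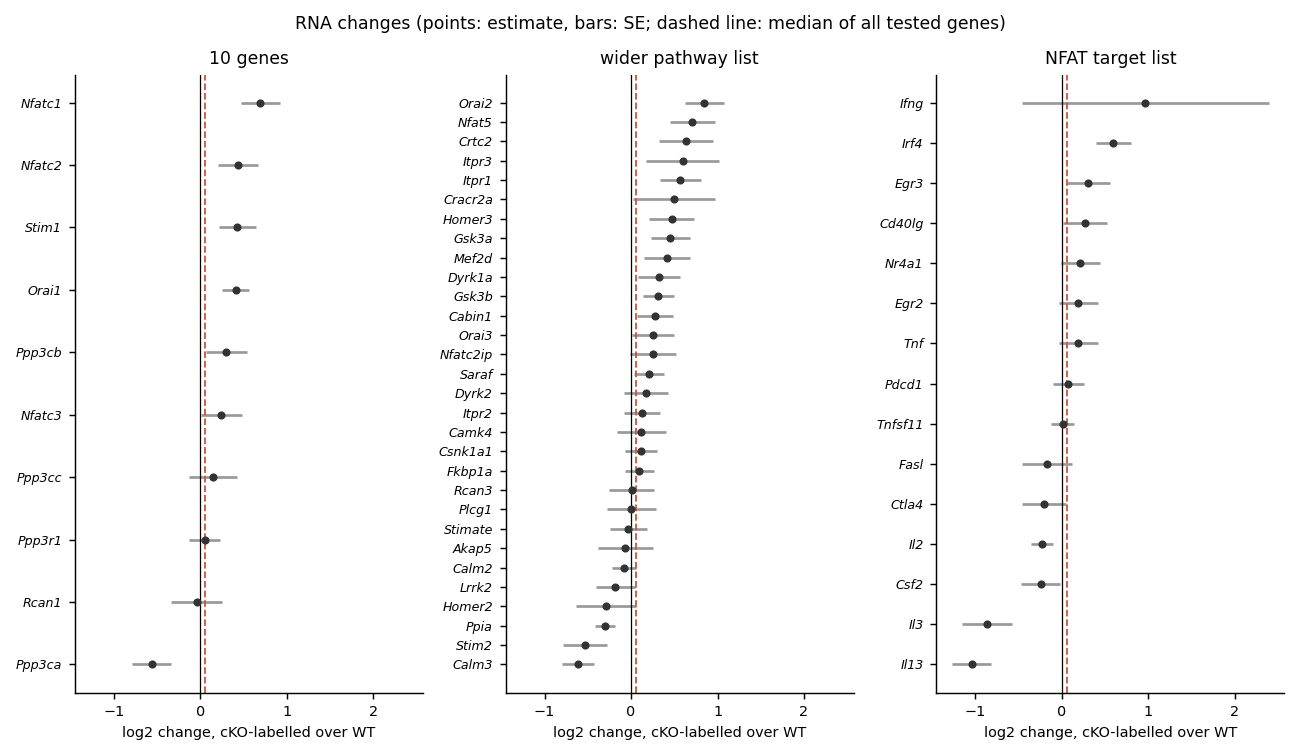
Log2 change of RNA, cKO-labelled over WT (x axis), for the 10 genes, 30 of the 31 tested genes of the wider pathway list and the tested NFAT targets; points are limma estimates, bars their SE, and the dashed line is the median of all tested genes, 0.06. Nfatc1 at 0.70 and Ppp3ca at -0.56 are the ends of the 10 genes, and no gene shown passed the threshold.

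Open chromatin was then read over the same 10 genes. HOMER peaks from the 6 libraries were merged into regions, and 130 regions lay over the 10 genes or within 1 kb of them. Of these, 50 had a peak in all 6 lists and could be tested. The value of a region was the tag count of its largest peak, per 10000000 tags of the library; it covers the whole peak and so grows with the peak's length. Log2 changes are taken after each library's median is subtracted, unless another scaling is named, and so differ from ratios of the tags themselves. On this scale 13 of the 50 rose and 3 fell in cKO-labelled libraries, that is 26% and 6%. Over all 33531 shared regions 28.0% rose and 5.48% fell, so both shares lay near the background. Overlap of groups is stated below for tags before medians were subtracted, and can differ after subtraction. The medians over shared regions were 42.3, 30 and 39.8 tags in WT and 29.7, 31 and 28.5 in cKO-labelled libraries.

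Regions at the genes' starts and ends were counted apart from those inside the genes. For Ppp3ca, Ppp3cc and Nfatc1, which have no RefSeq promoter window here, the ends of the gene were used. Of 12 such regions 10 rose and none fell, with a median log2 change of 0.60, in a background where 61.1% of shared regions over promoter windows rose and 1.05% fell, with a median of 0.53. This direction depended on the scaling: 11 of 12 were positive with medians subtracted (88.9% of shared regions over promoter windows), 10 without subtraction (1 called), but only 4 under quantile normalization and 3 under cyclic loess, where the medians were -0.07 and -0.09. Inside the genes 3 of 38 regions rose and 3 fell, beside 13.7% and 7.39% of shared regions outside promoter windows. There 27 of the 38 had negative changes, with a median of -0.15 beside -0.01 for the shared regions outside promoter windows, of which 50.9% were negative. Of the 50 regions, 38 lay below the median change of the shared regions in the same decile of mean tags.

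**Figure D3:**
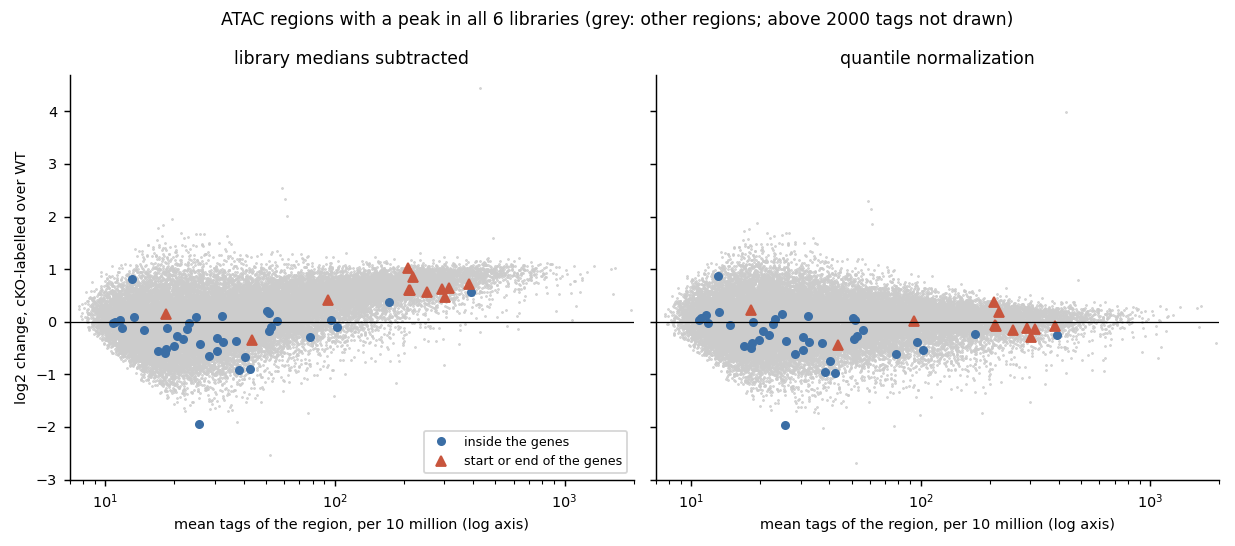
Log2 change of ATAC tags, cKO-labelled over WT (y axis), against mean tags per 10000000 (x axis, log scale) for regions shared by all 6 lists, with library medians subtracted (left) or quantile normalization (right); grey points are regions of other genes, circles lie inside the 10 genes and triangles at their starts or ends. The triangles lie mostly above 0 on the left (11 of 12) and mostly below 0 on the right (4 of 12 above), while the lowest circle, in Ppp3cc, lies near -2 in both.

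Under all 4 scalings 1 of the 50 regions rose, at Rcan1, and 2 fell, both in Ppp3cc. These counts stand beside 1.03% and 2.23% of all shared regions. The ATAC headers list 13149952 to 18327127 tags per library, and WT library 2 had 25.22% of its tags in peaks against 34.87% to 38.28% in the other libraries. It was the lowest WT library at all 10 regions that rose at starts and ends; each of these calls held when it was left out.

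The region with the largest fall lies inside Ppp3cc at chr14:70280234-70282519 (mm10), its centre 8.16 kb from the gene's higher-coordinate end. Its tags were 49.1, 34.4 and 45.8 in WT and 7.93, 8.74 and 7.98 in cKO-labelled libraries. The groups lay far apart, with means of 43.1 ± 7.71 and 8.22 ± 0.45 (SD, n = 3 each), 5.25-fold lower in tags. The cKO-labelled values lie near the smallest that were called, the lowest mean of any shared region being 7.695 tags. Much lower values would have left no peak, and regions without a peak in every list were not fitted. What part this limit has in the small SD, the p-value and the ratios below was not tested. The log2 change was -1.94 (SE 0.223, limma adjusted p = 3.4e-05), and -2.24, -1.97 and -1.83 without subtraction, with quantile normalization and with cyclic loess. Of 33531 shared regions 1 had a lower log2 change, and 0.0686% were called with a change of -1.5 or lower.

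The peak called in this region was shorter in each cKO-labelled library, and not at the same place in all of them. The WT peaks were 2203, 1844 and 2105 bp long, and the cKO-labelled peaks 500 bp each, the peak size set in the HOMER headers. In cKO-labelled libraries 1 and 2 the peak began 7.469 and 7.369 kb from the gene's higher end, and in library 3 8.789 kb from it. The peak of library 3 overlapped neither of the others, and the longer WT peaks, which overlap all of them, join them into 1 region. Tags per kb of peak were 22.3, 18.7 and 21.8 in WT and 15.9, 17.5 and 16.0 in cKO-labelled libraries. The tags per kb did not overlap either, but the log2 change on that scale was -0.18 (limma adjusted p = 0.452).

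Its neighbours inside the gene lay in the same direction. The region at chr14:70271150-70273672 had 69.8, 40.1 and 69.1 tags in WT and 25.2, 17.2 and 33.8 in cKO-labelled libraries, without overlap, and fell (log2 change -0.90, SE 0.243, limma adjusted p = 0.0103; -0.09 per kb of peak). The region at chr14:70283324-70284387 had 42.7, 32.7 and 43.9 tags in WT and 22.1, 25.4 and 17.1 in cKO-labelled libraries, also without overlap, and just missed the threshold (log2 change -0.55, adjusted p = 0.0512). Its tags per kb of peak were 48.3, 36.9 and 42.6 in WT and 35.2, 24.5 and 21.5 in cKO-labelled libraries, apart by a small margin. The region over the higher end of the gene, at chr14:70288622-70290424, did not follow them. It had 108, 67.1 and 98.4 tags in WT and 95.2, 101 and 92.0 in cKO-labelled libraries, with overlap; its log2 change was 0.41 with medians subtracted (adjusted p = 0.0133) and -0.02 with cyclic loess.

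Ratios to this end region, which cancel any 1 factor per library but not a change that depends on tag height, were taken within each library after the values had been seen. For the region with the largest fall the log2 ratio was -1.12, -0.94 and -1.09 in WT and -3.43, -3.39 and -3.37 in cKO-labelled libraries, a difference of -2.35. For its neighbours the differences were -1.31 and -0.96. All 3 had groups that did not overlap and an exact permutation p of 0.1, the smallest possible. These regions were picked as those with the lowest changes in the gene, so this p gives no support beyond those changes. The share of such ratios over all shared regions was not tested. The differences were smaller where the scaling follows tag height, at -1.98, -0.99 and -0.55 with quantile normalization and -1.81, -0.94 and -0.50 with cyclic loess. Ppp3cc RNA, given above, had a log2 change of 0.15.

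**Figure D4:**
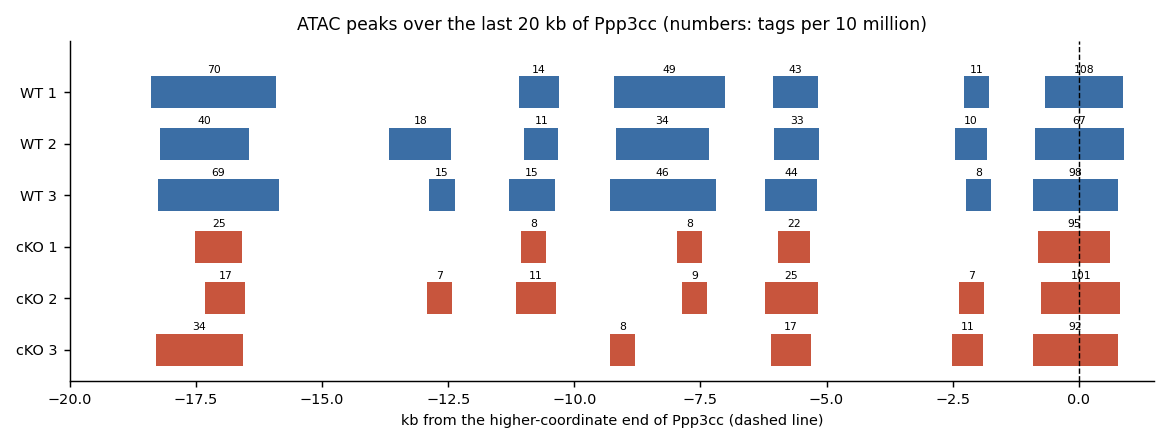
ATAC peaks (bars, drawn to length) in each of the 6 libraries over the last 20 kb of Ppp3cc, against distance in kb from the higher-coordinate end of the gene; the number over each bar is its tags per 10000000. The WT peaks about 8 kb from the end are 1844 to 2203 bp long. The cKO-labelled peaks within their reach are 500 bp and not all at the same place, while the peak over the end has similar tags in both groups.

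RefSeq gives Rcan1 promoter windows at 2 starts, an upstream one at chr16:92466120-92466419 and an internal one at chr16:92400029-92400328, both on the minus strand of GRCm38.p6. Their sequences are shown because the region at the upstream start rose and that at the internal start was not called. Capitals mark GGAAA, the core bound by NFAT, on either strand (GGAAA or TTTCC).
Rcan1 upstream start: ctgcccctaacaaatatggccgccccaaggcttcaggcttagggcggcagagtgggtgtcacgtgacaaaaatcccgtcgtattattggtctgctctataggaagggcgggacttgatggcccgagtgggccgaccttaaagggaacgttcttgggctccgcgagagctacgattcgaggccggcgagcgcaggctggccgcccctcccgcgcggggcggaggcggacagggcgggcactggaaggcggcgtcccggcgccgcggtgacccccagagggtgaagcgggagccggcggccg
Rcan1 internal start: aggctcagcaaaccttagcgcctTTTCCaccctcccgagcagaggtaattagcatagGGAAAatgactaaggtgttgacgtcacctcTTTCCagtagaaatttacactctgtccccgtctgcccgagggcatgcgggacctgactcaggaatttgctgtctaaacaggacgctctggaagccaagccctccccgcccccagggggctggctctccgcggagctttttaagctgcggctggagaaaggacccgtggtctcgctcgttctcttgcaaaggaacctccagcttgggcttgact
The internal window holds 3 GGAAA matches and 1 TGACTCA match, the site of AP-1, and the upstream window holds none of either. Over all 32851 windows of 300 bases in the RefSeq table, 61.3% hold at least 1 GGAAA, 9.42% hold 3 or more, and 5.20% hold TGACTCA. TGACNNNGC, the core of the antioxidant response element, is in 12.4% of all windows and in none of the windows of the 7 members that have one. All 3 motifs were searched on both strands, TGACNNNGC can share letters with the other motifs, and a match is only a match of letters.

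At the upstream start (region chr16:92465449-92466772) the tags were 192, 104 and 190 in WT and 251, 242 and 275 in cKO-labelled libraries. All cKO-labelled libraries lay above all WT libraries, and the region rose, 1.58-fold in tags, from 162 ± 50.3 to 256 ± 17.2. The log2 change was 1.01 (SE 0.129, limma adjusted p = 5.0e-05) and stayed past the threshold without subtraction (0.71), with quantile normalization (0.38) and with cyclic loess (0.35). On these scalings the limma adjusted p lay close to the threshold, at 0.0388, 0.0475 and 0.0370 in that order.

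At the internal start (region chr16:92398516-92400801) the tags of the largest peak were 32.8, 50.2 and 81.8 in WT and 31.4, 34.4 and 31.2 in cKO-labelled libraries. WT library 1 lay among the cKO-labelled libraries; there and in all cKO-labelled libraries the region was called as 2 peaks, in the other WT libraries as 1. The log2 change was -0.35 (SE 0.277, limma adjusted p = 0.371), -0.76 without WT library 1 (adjusted p = 0.00874), and 0.20 per kb of peak. Of the 6 fits with 1 library left out only the 1 without WT library 1 passed. The others went up to -0.067, with limma adjusted p up to 0.887. With the peaks of the region summed, the tags were 55.1, 50.2 and 81.8 in WT and 44.9, 46.8 and 43.0 in cKO-labelled libraries. These groups did not overlap before medians were subtracted. With all libraries kept, none of the 9 alternative settings, summed tags among them, called this region (limma adjusted p = 0.0991 to 0.551).

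The log2 ratio of upstream to internal tags, summed over peaks, was 1.78, 1.03 and 1.21 in WT and 2.46, 2.34 and 2.65 in cKO-labelled libraries. All cKO-labelled values lay above all WT values. The means were 1.34 ± 0.39 and 2.48 ± 0.15 (SD, n = 3 each), a difference of 1.14 with an exact permutation p of 0.1, the smallest possible; with the largest peak alone it was 1.36 (exact permutation p = 0.1). This ratio was chosen after the values had been seen. The shared regions in the same decile of mean tags had median log2 changes of 0.76 for the upstream region and 0.02 for the internal one; this difference by tag height moves with the ratio, and its part in it was not tested. With the largest peak the difference was 0.82 with quantile normalization and 0.79 with cyclic loess.

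**Figure D5:**
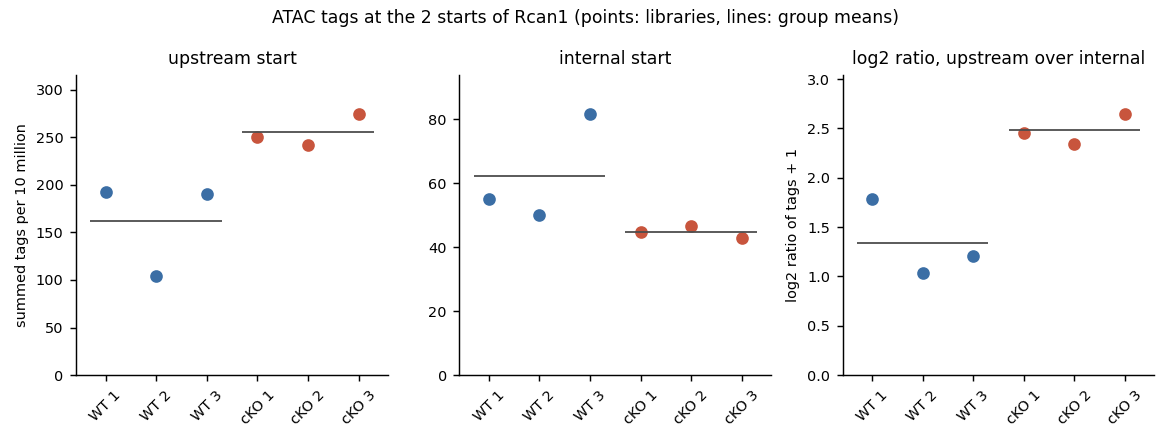
Summed ATAC tags per 10000000 at the upstream and internal starts of Rcan1 (left and centre, y axes from 0) and their log2 ratio (right) in the 6 libraries; points are libraries and lines group means. The cKO-labelled libraries lie above the WT libraries at the upstream start and in the ratio (2.34 to 2.65 against 1.03 to 1.78) and below them at the internal start. The tags are drawn before library medians were subtracted, and the internal start was not called.

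RefSeq gives Nfatc2 promoter windows at 2 starts as well, upstream at chr2:168601608-168601907 and downstream at chr2:168590316-168590615, both on the minus strand of GRCm38.p6. They are shown because only 1 of them lay under a peak in every library; capitals again mark GGAAA on either strand.
Nfatc2 upstream start: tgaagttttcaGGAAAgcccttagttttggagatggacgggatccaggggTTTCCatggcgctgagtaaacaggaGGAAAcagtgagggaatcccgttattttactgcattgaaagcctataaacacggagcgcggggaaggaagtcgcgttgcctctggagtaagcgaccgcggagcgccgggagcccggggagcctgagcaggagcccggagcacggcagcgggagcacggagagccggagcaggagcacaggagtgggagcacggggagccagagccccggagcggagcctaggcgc
Nfatc2 downstream start: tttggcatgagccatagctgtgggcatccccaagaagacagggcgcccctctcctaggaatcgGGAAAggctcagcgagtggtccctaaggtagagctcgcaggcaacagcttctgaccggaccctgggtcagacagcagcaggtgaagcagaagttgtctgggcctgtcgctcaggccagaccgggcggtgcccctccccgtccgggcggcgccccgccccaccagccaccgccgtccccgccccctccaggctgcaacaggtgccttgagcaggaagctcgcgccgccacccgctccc
The upstream window has 3 GGAAA matches and the downstream window 1. A peak over the upstream window was called in WT library 1 alone, at 10.6 tags, which does not show that the site was closed in the other libraries. Over the downstream window (region chr2:168587550-168591763) all 6 libraries had a peak, of 220, 163 and 190 tags in WT and 222, 228 and 248 in cKO-labelled libraries. The cKO-labelled values lay above the WT values, in part by a small margin, with a log2 change of 0.60 (SE 0.104, limma adjusted p = 0.000449) that became -0.07 with quantile normalization and -0.08 with cyclic loess.

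Inside Nfatc2, the region at chr2:168555704-168559353 had 63.4, 29.2 and 69.8 tags in WT and 17.6, 34.7 and 15.2 in cKO-labelled libraries. WT library 2 and cKO-labelled library 2 crossed, so the groups overlapped. The log2 change of -0.92 (SE 0.283, limma adjusted p = 0.0218) passed the threshold with medians subtracted, but not with quantile normalization (adjusted p = 0.0676) or cyclic loess (0.0661), nor without any 1 of WT libraries 1 and 3 and cKO-labelled libraries 1 and 3 (0.0728 to 0.0944). Per kb of peak it was 0.08. A small region at chr2:168544003-168544636 was the only region of the 130 with a peak in all 3 cKO-labelled lists (8.28, 7.05 and 7.98 tags) and none in WT, beside 0.280% of all 114469 regions.

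At the other starts, Ppp3cb had 205, 130 and 205 tags in WT and 244, 270 and 261 in cKO-labelled libraries (log2 change 0.85, SE 0.102, limma adjusted p = 3.7e-05). Of the 7 called regions at starts and ends not yet described, it alone kept a positive change under quantile normalization (0.19) and cyclic loess (0.17), though neither was called. The Ppp3cb window holds 4 GGAAA matches, the most among the members' windows. The log2 changes with medians subtracted were 0.62 at the lower end of Ppp3ca, 0.60 at Ppp3r1, 0.73 at Nfatc3, 0.63 at Orai1 and 0.47 at Stim1; each was called, and each was negative with quantile normalization and cyclic loess (-0.06 to -0.31). At Stim1 the negative change with cyclic loess, -0.31, was itself called (adjusted p = 0.0413).

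Nfatc1, the gene with the most regions, had 33, of which 13 were shared, 3 rose and none fell with medians subtracted. Its higher end had 241, 182 and 272 tags in WT and 277, 264 and 283 in cKO-labelled libraries, with overlap (log2 change 0.57 with medians subtracted, -0.15 with quantile normalization). Its tallest region, near the lower end but inside the gene, had 432, 269 and 378 tags in WT and 419, 426 and 421 in cKO-labelled libraries, with overlap (0.56 and -0.25 on the same 2 scalings). That region was called higher with medians subtracted but lower with quantile normalization (adjusted p = 0.0319) and cyclic loess (0.0222). With each of these scalings 3 regions of Nfatc1 fell and none rose; the other two had log2 changes of -0.61 and -0.54 with quantile normalization. The region at its lower end was not called (0.15, limma adjusted p = 0.758). No region of Nfatc1 was called in 1 direction under all 4 scalings; its RNA log2 change was 0.70. Inside Stim1, a small region at chr7:102337797-102338516 rose from 9.81, 7.64 and 14.6 tags in WT to 14.5, 12.4 and 19.4 in cKO-labelled libraries (log2 change 0.82, limma adjusted p = 0.0338), with overlap. It missed the threshold under each of the other 3 scalings (adjusted p = 0.0508 to 0.256) and without any 1 of 4 libraries, WT 1 and 2 and cKO-labelled 1 and 3 (0.0677 to 0.144).

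Over the 10 genes 3 of the 130 regions had a peak in each WT library and in none of the cKO-labelled ones, beside 2.48% of all regions; 30 were called in WT libraries alone and 18 in cKO-labelled libraries alone, in at least 1 library, beside 27.4% and 21.7% of all regions. The 3 regions were chr11:17192005-17192916 in Ppp3r1 (21.1, 8.18 and 18.4 tags), chr7:102417301-102417982 in Stim1 (11.7, 8.46 and 10.1 tags) and a region inside Nfatc1 (6.79, 9.28 and 10.9 tags). The number was 7 without WT library 2 or without cKO-labelled library 2, and 5 without WT library 3. These peaks are small, and a peak missing from a list may lie just under the caller's threshold.

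The length covered by peaks had a lower mean in cKO-labelled libraries for all 10 genes, and for 9 or 10 of them with any 1 library left out. Over the 19520 RefSeq genes with a peak in every list, 74.7% had a lower mean. The length did not overlap between groups for 5 of the 10, beside 23.0% of those genes with lower groups that did not overlap; members with long spans were not compared with genes of like span. The gap was widest in proportion for Ppp3cc, with 8.90, 8.82 and 9.13 kb in WT and 3.99, 5.72 and 5.35 kb in cKO-labelled libraries. Ppp3ca (means of 7.94 and 5.78 kb), Ppp3r1 (5.54 and 4.26 kb), Nfatc1 (40.2 and 35.9 kb) and Stim1 (9.20 and 6.91 kb) were the others. Each had an exact permutation p of 0.1, the smallest possible, and an adjusted value of 0.20 over the 10 genes by this exact test. The whole lists covered 74387, 63234 and 64140 kb in WT and 52883, 63469 and 52904 kb in cKO-labelled libraries, with overlap through cKO-labelled library 2, and the part of this in the members' lengths was not tested.

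Transcripts that overlap a member could share its reads where strand was not used in counting, which is not given in the sources used here. Ppp3cb overlaps 1810062O18Rik by 281 bp and Nfatc3 overlaps Esrp2 by 219 bp in RefSeq. Ppp3cc, Nfatc1, Rcan1 and Stim1 overlap predicted genes, of which Gm46555, over Rcan1, is in the RNA table.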

How the data were processed

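RNA-seq and ATAC-seq were each measured in 3 WT and 3 cKO-labelled libraries, grouped by genotype label. The submitters' processing notes name Bowtie2 2.3.5.1, HOMER 4.11, RSEM 1.3.3, STAR, edgeR and DESeq2 with mm10; settings are not given in the sources used here. The deposited RNA values are a signal, normalized counts that are not whole, so the raw depth is unknown and no count test was run. The authors' log2 fold change, p-value and adjusted p-value are deposited beside them. Per the file headers HOMER called peaks in each library at a Poisson threshold of 0.001, stitching peaks within 1000 bp; tag counts are a signal per 10000000 tags. The deposited HOMER score is not scaled to depth and only ranked peaks within a list; the deposited clonal fold, a ratio, was not used.

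Genes with a mean of at least 10 were fitted with limma 3.58.1 (R 4.3.3, mean-variance trend) on log2(value + 1), so changes of low genes are understated, with Benjamini-Hochberg adjustment over all genes and a threshold of 0.05. Peaks sharing at least 1 bp were merged (Python 3.11.15, pandas 2.3.3, numpy 2.4.6) and shared regions were fitted likewise after subtraction of library medians. Gene spans and promoter windows (250 bases before to 50 after a start) are from RefSeq GRCm38.p6; 87.3% of RNA genes matched a span, and 7 of the 10 members have a window. Single values were compared by exact permutation tests. Figures were drawn with matplotlib 3.10.9. The fits were also run on simulated independent normal values, which hold neither a peak-calling limit nor a change with tag height.

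The members and lists were chosen with earlier results of these data known. Named were all 10 members, the 4 genes with the smallest p of each list when none passed, and of each member the start regions, the tallest shared region, up to 3 called regions with the smallest p and regions called in 1 group. The third Ppp3cc region, 4 further cytokine genes (Csf2, Tnf, Ifng, Tnfsf11), 2 inner Nfatc1 regions, the ratios between regions with their values under other scalings, and covered length over all RefSeq genes were added after their values were seen. Alternatives were other pseudocounts, minimums, normalizations, merging overlaps, flanks and peak numbers, tags summed or per kb, a replicate block, and each library left out. One gene of the wider pathway list is not reported here.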

Additional observations from a re-analysis of the deposited data

How the results depend on the processing

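None of the 10 members passed the RNA threshold under any alternative run, each left-out library and the authors' adjusted p-values included. The count of all genes past it, 37, depended on the setting: it was 7 with TMM rescaling, 6 with no trend and 526 by the authors' adjusted p-values, and ran from 1 to 150 with 1 library left out. The 6 higher genes became 1, 17, 2 and 165 with TMM, quantile normalization, no trend and the authors' values (0 to 56 with a library left out), and the 31 lower genes 6, 16, 4 and 361 (1 to 94). It was 150 without cKO-labelled library 2, 84 without WT library 1 and 5 or fewer without any other library. Same-numbered WT and cKO-labelled libraries correlated around their group means at 0.12, 0.21 and -0.06 for RNA and at -0.03, -0.01 and 0.01 for ATAC. Differently numbered ones spanned -0.27 to 0.22 in RNA, while their ATAC values lay between -0.02 and 0.03. So few correlations, taken around means of 3 libraries, cannot decide whether equal numbers mark paired samples. With the replicate block 122 genes passed (30 higher, 92 lower), none of them a member, and no call on a named gene or region changed. With a library left out the RNA change of Ppp3r1 ran from -0.045 to 0.22, that of Rcan1 from -0.28 to 0.093, the ATAC change at the Nfatc1 lower end from -0.048 to 0.53, the covered length of Orai1 from -0.87 to 0.22 kb, and the regions in all WT lists alone from 3 to 7. Nfe2l2 kept its direction throughout but not its call with TMM, no trend, or without WT library 2 or 3 or cKO-labelled library 1 or 3 (adjusted p up to 0.446). The 9387 shared ATAC regions that rose became 459 without subtraction, 1229 with quantile normalization and 1373 with cyclic loess, and the 1836 that fell 3029 without subtraction. The 13 risen regions over members became 1 under each of these 3 scalings and 7 per kb of peak. The 3 that fell became 7, 5 and 7 under them, 5 with summed tags and 1 per kb. With quantile normalization and cyclic loess the log2 changes turned to -0.12 and -0.14 at Ppp3ca, -0.061 and -0.075 at Ppp3r1, -0.15 and -0.16 at the Nfatc1 higher end, -0.25 and -0.28 at its tallest region, -0.23 and -0.25 at its inner region next to the higher end, -0.075 and -0.082 at Nfatc2, -0.073 and -0.10 at Nfatc3, -0.13 and -0.15 at Orai1, and -0.29 and -0.31 at Stim1. The Ppp3cc higher end turned to -0.017 with cyclic loess and the Nfatc1 lower end to -0.16 without subtraction. Per kb of peak the Nfatc2 inner region turned to 0.084 and the Rcan1 internal start to 0.20. The causes were not tested. Start regions of Ppp3cc, Ppp3r1, Nfatc2 and Nfatc3 gave no value with equal numbers of top peaks. Depth limits the small regions, whose peaks hold about 7 to 20 tags.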
